A study of Mus musculus with 18 samples.

Results

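The 10 genes described here encode the enzymes that write, copy and remove methyl groups on DNA cytosines, or that assist in doing so: Dnmt1, Dnmt3a, Dnmt3b, Uhrf1, Tet1, Tet2, Tet3, Gadd45a, Mbd4 and Tdg. They were taken from the deposited table of nascent RNA counts by mouse gene symbol, and 10 of 10 matched 1 row each of the 54232 gene identifiers listed. No threshold on a measured value entered the rule. All 10 passed the filter on low counts in the erythroid libraries.

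The assay was 4sU-seq: living cells take up the uridine analogue 4-thiouridine, and the RNA made during this pulse is purified and sequenced. The cells came from C57BL/6 mouse fetal liver at e12.5 to e13.5. Fluorescence sorting gave 5 erythroid populations, from which lineage-positive cells had been gated out: S0-Low is given as CD71 low in 1 label and CD71- in another, without Ter119, S0-Medium had medium CD71 without Ter119, S1 had high CD71 without Ter119, S2 had high CD71 with medium Ter119, and S3 was high for both. The study places stem and progenitor cells with BFU-E in S0-Low, CFU-E in S0-Medium and S1, and maturing cells in S2 and S3. Lin+ cells carried at least 1 of the lineage antigens CD41, CD45R, CD3e, CD11b and Ly-6G/6C. Every population rested for 6 h after the sort and was then labelled with 500 µM 4sU for 45 min. Each had 3 replicate libraries, 18 in all, and the labels did not say whether these came from separate litters, so p-values measure the spread between these libraries.

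Total counts ranged from 9452476 in S0-Low replicate 3 to 40567976 in S1 replicate 1, and 3 counts equal 0.317 and 0.074 CPM in them. Normalized counts are counts scaled by TMM, edgeR's weighted trimmed mean, to the mean effective library size. The TMM factors of the 3 S3 libraries lay between 0.594 and 0.756 against 0.888 to 1.31 in the other erythroid libraries, so that the scaling bears on S3 most. Summed normalized counts of 9 erythroid markers were 16010 to 34190 in S0-Low, 871500 to 1464000 in S3 and 8748 to 11230 in Lin+, although the labels name Lin+ among erythroblasts. Itgam, the gene of CD11b, was at 0 in all 18 libraries. In bulk samples, fewer cells of a type and less RNA per cell cannot be told apart.

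In mammals, most cytosines followed by guanine carry a methyl group, and each round of DNA replication leaves the new strand without it. UHRF1 binds these hemimethylated sites and brings in DNMT1, which restores the mark, whereas DNMT3A and DNMT3B place new marks. The TET dioxygenases oxidise the methylated base, and TDG cuts out its most oxidised forms, while MBD4 removes the thymine left when a methylated cytosine loses its amino group. GADD45A is a stress-induced protein that has been linked to this repair. Maturing erythroblasts are known to lose DNA methylation across the genome while they divide.

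The members separated into those that changed between S0-Low and S3 and those whose difference did not pass the test. Over the 5 erythroid populations, 6 of 10 members passed edgeR's quasi-likelihood F test, with p-values adjusted by Benjamini-Hochberg and a threshold of 0.05: Dnmt3a, Dnmt3b, Tet1, Tet2, Gadd45a and Uhrf1. Of all 16555 genes tested, 24.6% were called in that test. In S3 against S0-Low, 2 members were higher (Gadd45a and Uhrf1), against 13.4% of all genes, and 4 were lower (Dnmt3a, Dnmt3b, Tet1 and Tet2), against 22.4%. Uhrf1 (adjusted p = 0.0372 over the 5 populations) lost the overall call with RLE factors (0.0786), library totals (0.265), a minimum of 10 counts per library (0.113) or all genes kept in the test (0.0676), and in 11 of 15 fits that left out 1 library (up to 0.117). The other 5 were called in all 15. Dnmt1, Tet3, Mbd4 and Tdg were not called in S3 against S0-Low, which does not show them to be unchanged.

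**Figure D1:**
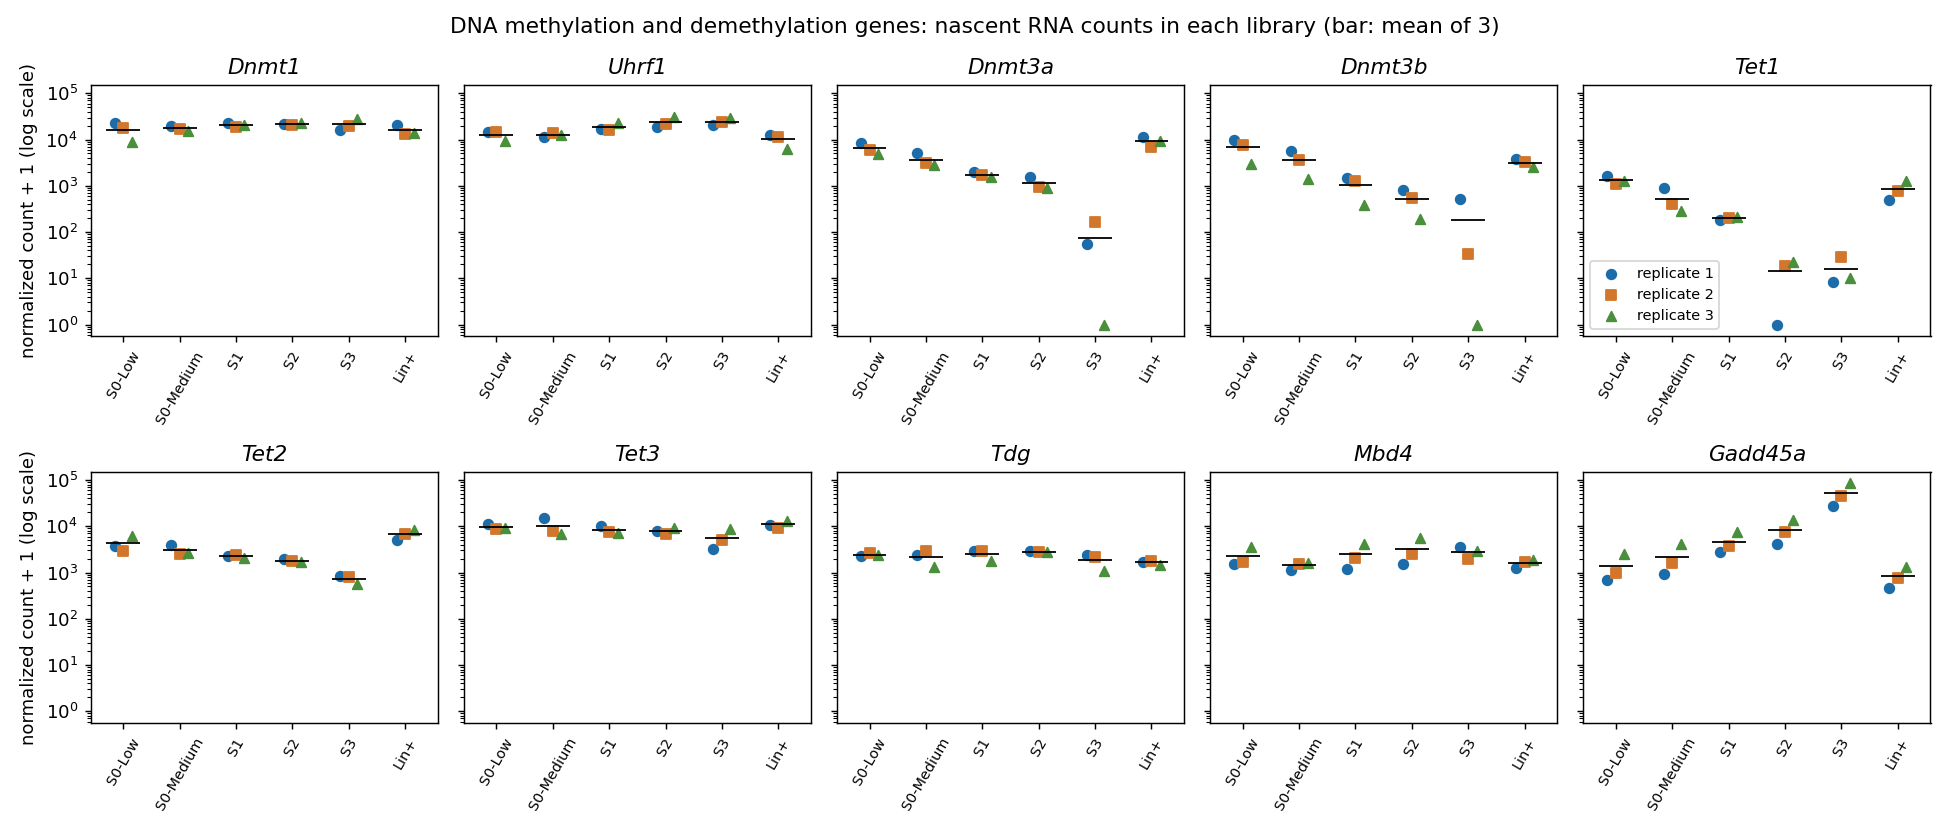
Normalized nascent RNA counts plus 1 (log scale) of the 10 genes in each of 18 libraries, by population. Symbols give the replicate and bars the mean of 3. Dnmt3a, Dnmt3b, Tet1 and Tet2 stepped down from S0-Low to S3, Gadd45a stepped up, and Dnmt1 stayed between 8733 and 28061 in every library.

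The maintenance genes were transcribed throughout. Dnmt1 (chr9:20907206-20959888, GRCm38.p6), the copying methyltransferase, had 22741, 17450 and 8733 normalized counts in S0-Low replicates 1 to 3 and 16362, 19776 and 28061 in S3. These groups overlapped. The log2 fold change was 0.39 ± 0.33 (SE), with an adjusted p of 0.358, and its sign depended on the scaling: it was -0.45 when library totals were used. The populations between had means of 17510 ± 2418 (SD, n = 3) for S0-Medium, 20531 ± 2050 for S1 and 21797 ± 1357 for S2.

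Uhrf1 (chr17:56303337-56323486), which recruits DNMT1 to newly replicated sites, had 14337, 14389 and 9088 normalized counts in S0-Low and 11319, 13777 and 12739 in S0-Medium. It had 16924, 16058 and 23281 in S1, 18809, 21750 and 30282 in S2, and 20394, 23493 and 29335 in S3. Each S3 library exceeded each S0-Low library. The rise from S0-Low to S3 was 0.95 ± 0.29 on the log2 scale with an adjusted p of 0.0201. This is the least secure of the 6 calls, since with library totals the value was 0.10 with an adjusted p of 0.766. It also missed the threshold without S0-Low replicate 3 (0.72, adjusted p = 0.0856) and without S3 replicate 3 (0.78, adjusted p = 0.0816). Without a low-count filter, with at least 10 counts required in every compared library, or with only these 6 libraries in the fit, the adjusted p was 0.0515, 0.0597 and 0.104.

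The ratio of both genes within a library does not depend on the scaling. The log2 ratio of Uhrf1 to Dnmt1 counts was -0.67, -0.28 and 0.06 in S0-Low and 0.32, 0.25 and 0.06 in S3, a difference of 0.51. The groups did not overlap, although S0-Low replicate 3 and S3 replicate 3 were nearly equal. The two-sided exact permutation p was 0.1, the smallest that 3 libraries against 3 allow (0.15 after adjustment over 6 ratios). Of 16 tested genes of S phase, when the mark is copied, 8 were higher in S3 and 8 were not called. Of all genes, 13.4% were higher and 22.4% lower. With library totals 6 of the 16 were higher and 2 lower, against 6.98% and 37.6% of all genes, and their median log2 fold change went from 0.95 to 0.12. The summed level of all 17 listed was 85250 to 130800 in S0-Low and 234200 to 354000 in S3, and Cdt1 was at 0 in all 18 libraries. What part cell cycle state has in the Uhrf1 result was not tested.

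The promoters of these maintenance genes are shown because they were the only members with a match to words bound by E2F, a factor of S phase entry. The 4 words of that kind (TTTCCCGC, TTTGGCGC, TTTCGCGC and TTTGCCGC), and CCAAT, the NF-Y word, were searched on both strands in the 250 bases before each RefSeq start. An E2F word lay in 2 of 15 member windows and in 1.86% of all 32851 windows, and CCAAT lay in 8 of 15 and in 33.8%. The Dnmt1 window is on the minus strand of chr9:20952624-20952873 and the Uhrf1 window on the plus strand of chr17:56304063-56304312. Capitals mark matches on either strand, 5′ to 3′, and the first capital run of Dnmt1 holds 2 overlapping CCAAT matches on opposite strands:
Dnmt1: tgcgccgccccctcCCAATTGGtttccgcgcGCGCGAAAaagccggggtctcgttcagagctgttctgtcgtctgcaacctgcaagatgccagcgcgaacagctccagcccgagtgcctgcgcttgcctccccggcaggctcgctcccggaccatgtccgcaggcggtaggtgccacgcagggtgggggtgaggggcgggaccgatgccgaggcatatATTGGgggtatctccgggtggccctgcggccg
Uhrf1: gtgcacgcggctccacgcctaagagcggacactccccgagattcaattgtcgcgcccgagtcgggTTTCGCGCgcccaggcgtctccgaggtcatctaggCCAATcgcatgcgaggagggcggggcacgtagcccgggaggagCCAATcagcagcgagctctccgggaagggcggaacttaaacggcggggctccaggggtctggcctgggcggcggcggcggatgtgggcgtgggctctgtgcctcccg
The E2F match begins 219 bases before the start in Dnmt1 and 185 bases before it in Uhrf1. Both windows belong to starts inside the gene spans given above and not to the outermost start, so they hold sequence from within the genes. A match of letters is a description of the window and not a binding site. The other 2 Dnmt1 windows and the other Uhrf1 window held no E2F word.

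The de novo methyltransferase genes fell. Dnmt3a (chr12:3801559-3914443) had 8570, 5917 and 4777 normalized counts in S0-Low, 5132, 3043 and 2875 in S0-Medium, and 2031, 1685 and 1530 in S1. It had 1588, 928 and 909 in S2, and 53.3, 166 and 0 in S3. The populations followed each other downward, and S0-Medium was separated from S1 and S2 from S3 without overlap. In S3 against S0-Low the log2 fold change was -6.44 ± 0.96, an 86.6-fold fall, with an adjusted p of 0.000161. It ranged from -7.97 (without S3 replicate 2) to -5.86 (without S3 replicate 3). In raw reads the 3 S3 libraries held 22, 115 and 0 counts.

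Dnmt3b (chr2:153649411-153687730), its relative with a central role in early embryos, had 9843, 7505 and 2921 normalized counts in S0-Low, 5574, 3605 and 1420 in S0-Medium, and 1443, 1257 and 393 in S1. It had 799, 554 and 191 in S2, and 521, 31.7 and 0 in S3. Each S3 library lay below each S0-Low library, although S3 overlapped S2. S3 against S0-Low gave -5.22 ± 1.304 on the log2 scale with an adjusted p of 0.00654, and it ranged from -8.68 to -4.64 when 1 library was left out at a time. The value furthest out came without S3 replicate 1, which alone held 215 of the counts in S3.

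Reads of Dnmt3b could be split with Dnmt3b-ps1, a neighbouring related copy that the table lists as Gm14490. Of the 31-base words of the Dnmt3b coding transcripts, 15.9% also occur in the annotated exons of that copy. Its row never exceeded 586 counts in a library. It had 40, 190 and 42 counts in S0-Low and 105, 14 and 0 in S3, so that in S3 it stood at a similar size to Dnmt3b itself. Dnmt3a overlaps 2 long noncoding genes in RefSeq, and whether the counting used strand is not given in the sources used here.

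The Dnmt3b promoter, at chr2:153649199-153649448 on the plus strand, is shown as that of a falling gene, with its 21 CpG dinucleotides in capitals. The median over all windows was 6.
Dnmt3b: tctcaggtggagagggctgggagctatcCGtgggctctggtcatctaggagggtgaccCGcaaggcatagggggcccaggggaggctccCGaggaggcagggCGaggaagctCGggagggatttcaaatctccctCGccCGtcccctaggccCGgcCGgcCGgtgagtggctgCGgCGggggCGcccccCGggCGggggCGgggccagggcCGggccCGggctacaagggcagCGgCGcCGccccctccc
None of the 6 windows of the 4 falling genes held an E2F, a CCAAT or a CCACCC word, the last of which is bound by KLF factors.

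In S3, Dnmt1 made up nearly the whole methyltransferase signal. Each gene's counts were divided by the length of its longest transcript in GENCODE vM1 and then given as a share of the 3 genes, within each library, which does not depend on the scaling between libraries. The Dnmt1 share was 57.7%, 58.5% and 58.7% in S0-Low, 67.6%, 74.2% and 82.2% in S0-Medium, and 88.7%, 88.2% and 94.1% in S1. It was 92.1%, 94.6% and 97.0% in S2 and 96.1%, 99.4% and 100.0% in S3. The share of Dnmt3b exceeded that of Dnmt3a in each S0-Low library, at 28.3% ± 3.85 (SD, n = 3) against 13.4% ± 3.58. That order depends on the lengths used, 4320 bases for Dnmt3b and 9685 for Dnmt3a. In S0-Low replicate 3 the raw counts were 1100 for Dnmt3b and 1799 for Dnmt3a.

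The log2 ratio of Dnmt1 to Dnmt3a counts was 1.41, 1.56 and 0.87 in S0-Low, and that of Dnmt1 to Dnmt3b was 1.21, 1.22 and 1.58. In S1 they were 3.46, 3.45 and 3.77, and 3.96, 3.87 and 5.73. In S3 replicates 1 and 2 the ratios were 8.23 and 6.89 to Dnmt3a, and 4.97 and 9.25 to Dnmt3b. S3 replicate 3 held 0 counts of both Dnmt3a and Dnmt3b, so its value of 14.9 in either ratio was set by the 0.5 added to each count.

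The S3 and S0-Low libraries did not overlap in either ratio (exact permutation p = 0.1, adjusted 0.15). The difference in means was 8.73 for Dnmt3a, or 6.28 without S3 replicate 3 and up to 10.3 without S3 replicate 2. For Dnmt3b it was 8.37, or 5.78 without S3 replicate 3 and up to 10.7 without S3 replicate 1. The ratio of Dnmt3a to Dnmt3b was -0.20, -0.34 and 0.71 in S0-Low and -3.26 and 2.36 in S3 replicates 1 and 2, which lie on either side of S0-Low.

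**Figure D2:**
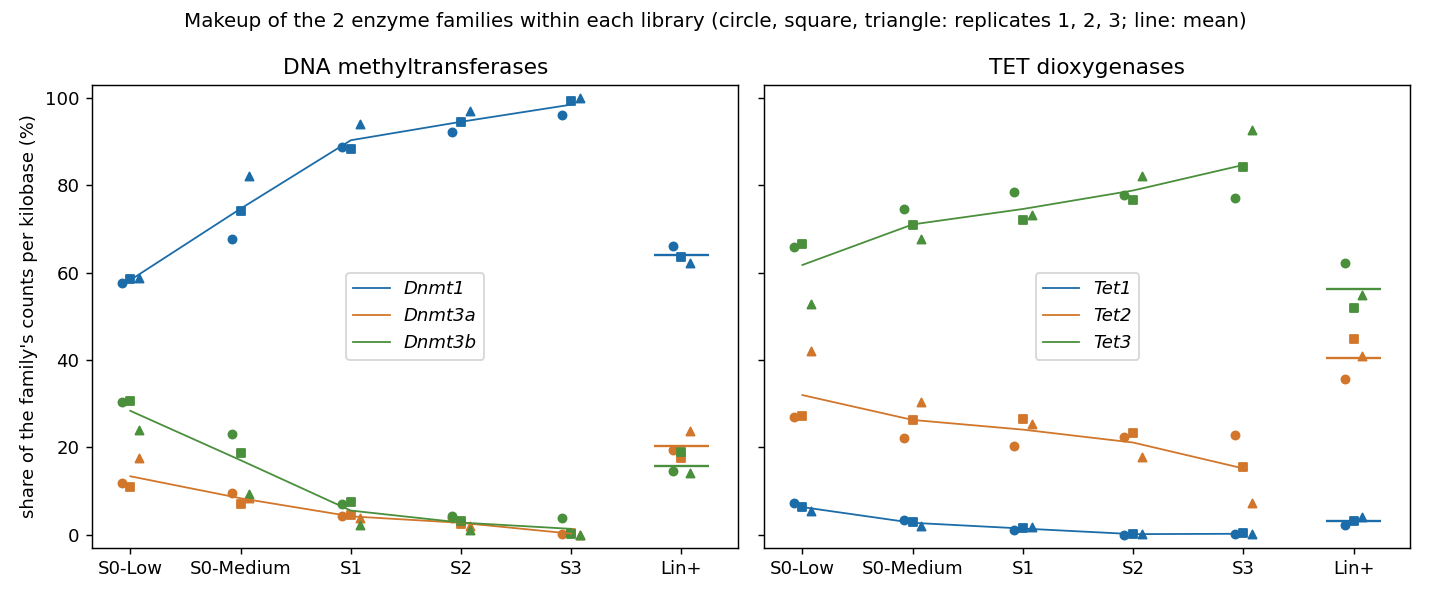
Share (%) of each family's counts per kilobase taken by its members, within each library and by population, with lines or bars at the mean of 3. Dnmt1 went from a mean of 58.3% in S0-Low to 98.5% in S3, and Tet3 from 61.8% to 84.7%.

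The TET genes differed among themselves. Tet1 (chr10:62804570-62887469) had 1617, 1070 and 1245 normalized counts in S0-Low, 886, 413 and 281 in S0-Medium, and 185, 198 and 214 in S1. It had 0, 17.9 and 22.02 in S2, and 7.27, 27.4 and 9.19 in S3. Tet1 was thus near 0 by S2, where its raw counts were 0, 21 and 15, and each of the first 3 steps separated the libraries without overlap. In S3 against S0-Low it changed by -6.45 ± 1.11 on the log2 scale, with an adjusted p of 0.000476. The S3 libraries held 3, 19 and 5 counts, and the value ranged from -7.29 (without S3 replicate 2) to -6.15 (without S3 replicate 1).

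Tet2 (chr3:133463677-133545136), a gene often mutated in blood cancers, had 3802, 2945 and 6298 normalized counts in S0-Low, 3880, 2515 and 2624 in S0-Medium, and 2244, 2358 and 2085 in S1. It had 1954, 1750 and 1696 in S2, and 821, 794 and 563 in S3. S0-Medium overlapped S0-Low, and from S1 onward each population lay wholly below the one before. Between S0-Low and S3 the log2 fold change was -2.58 ± 0.34 with an adjusted p of 6.34e-05, and Tet2 was called in S3 against S0-Low under all 16 alternatives tried.

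Tet3 (chr6:83362373-83457208) was the TET gene with the highest level per kilobase in every population. It had 11095, 8614 and 9404 normalized counts in S0-Low and 3292, 5142 and 8669 in S3, and these groups overlapped. The log2 fold change of -0.77 ± 0.37 was not called (adjusted p = 0.112), but it was called with library totals (-1.66, adjusted p = 0.0011), without S3 replicate 3 (-1.21, adjusted p = 0.0268) and with at least 10 counts required in every compared library (-1.03, adjusted p = 0.0396). The share of Tet3 among the 3 TET genes per kilobase was 61.8% ± 7.82 (SD, n = 3) in S0-Low and 84.7% ± 7.88 in S3. The log2 ratio of Tet2 to Tet3 counts was -1.22 ± 0.56 in S0-Low and -2.88 ± 0.98 in S3, without overlap (exact permutation p = 0.1, adjusted 0.15).

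The Tet2 promoter is shown as the member window richest in CpG. Its 250 bases, on the minus strand of chr3:133544391-133544640, hold 51 CpG dinucleotides (capitals), and 99.9% of all windows hold fewer:
Tet2: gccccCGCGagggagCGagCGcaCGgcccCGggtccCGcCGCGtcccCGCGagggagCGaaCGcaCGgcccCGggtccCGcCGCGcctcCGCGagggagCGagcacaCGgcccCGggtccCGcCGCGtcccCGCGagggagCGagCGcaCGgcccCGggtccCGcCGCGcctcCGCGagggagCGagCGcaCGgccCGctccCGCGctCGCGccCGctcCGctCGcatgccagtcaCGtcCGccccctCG
The Tet1 window, by comparison, holds 15.

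Gadd45a (chr6:67035096-67037407) rose most. It had 698, 989 and 2525 normalized counts in S0-Low, 936, 1610 and 4045 in S0-Medium, and 2790, 3776 and 7480 in S1. It had 4103, 7415 and 14038 in S2, and 27942, 44916 and 86018 in S3. Means went up at each step, and only S3 was separated from the population before it without overlap. From S0-Low to S3 the log2 fold change was 5.24 ± 0.75, a 37.7-fold rise, with an adjusted p of 0.000116. It was called under all 16 alternatives, between 4.29 and 5.93. An annotated noncoding gene, E230016M11Rik, overlaps Gadd45a by 809 bases.

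Per kilobase of transcript, Gadd45a stood above both maintenance genes in S3. Its level there was 43300 ± 24420 normalized counts per kilobase (SD, n = 3), against 6806 ± 1266 for Uhrf1 and 4065 ± 1143 for Dnmt1, whereas in S0-Low it was 1148 ± 803 against 3515 ± 849 and 3098 ± 1344. Its promoter window, at chr6:67037408-67037657 on the minus strand, is shown for the strongest riser and holds 1 CCAAT match (capitals), which begins 86 bases before the start:
Gadd45a: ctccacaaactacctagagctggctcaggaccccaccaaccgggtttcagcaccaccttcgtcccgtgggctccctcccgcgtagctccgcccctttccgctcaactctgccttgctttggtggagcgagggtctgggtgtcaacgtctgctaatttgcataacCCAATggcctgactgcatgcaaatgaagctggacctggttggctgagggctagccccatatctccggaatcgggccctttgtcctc
No window of any member held the GATA words AGATAA or TGATAA, which occur in 16.6% of all windows, or TATAAA, which occurs in 12.4%. The KLF word CCACCC, not marked by capitals, lay in 5 of 15 member windows, of Dnmt1, Uhrf1, Tet3 and Mbd4, and in 28.1% of all windows.

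Neither glycosylase gene was called with TMM scaling. Tdg (chr10:82629814-82650799) had 2290, 2609 and 2371 normalized counts in S0-Low and 2427, 2212 and 1083 in S3, with a log2 fold change of -0.35 ± 0.36 (adjusted p = 0.469). With library totals it was -1.15 and was called (adjusted p = 0.0274). Mbd4 (chr6:115840697-115853400) had 1495, 1689 and 3643 in S0-Low and 3580, 1935 and 2960 in S3. Its log2 fold change of 0.31 ± 0.52 (adjusted p = 0.664) became -0.55 with library totals. Both genes overlapped between the groups, and so did their within-library ratio (difference -0.81, exact permutation p = 0.3, adjusted 0.36). Of the 31-base words of the Tdg transcripts, 54.4% also occur in Gm5806, a row that never exceeded 20 counts in a library.

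Libraries with the same replicate number deviated together. Among the members, Gadd45a was highest and Dnmt3b lowest in replicate 3 of all 5 erythroid populations, and Dnmt3a was lowest in replicate 3 of 5. No other member was highest or lowest in replicate 3 of all 5, and Dnmt1 and Tet3 were each highest there in 2 and lowest in 2. The summed erythroid markers were also highest in replicate 3 of 5 populations. They went from 34190 against 16010 and 24470 in S0-Low to 1464000 against 871500 and 1203000 in S3. The summed myeloid markers were lowest there in 5, although they held only 8.81 to 19.0 in S2 and 0 to 60.6 in S3. Stem and progenitor sums were highest in replicate 3 of 3 populations and lowest in 2, S phase sums in 4 and 1, and G2/M sums in 3 and 0. The part of the erythroid and myeloid marker differences in the Gadd45a and Dnmt3b differences between replicates was not tested.

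**Figure D3:**
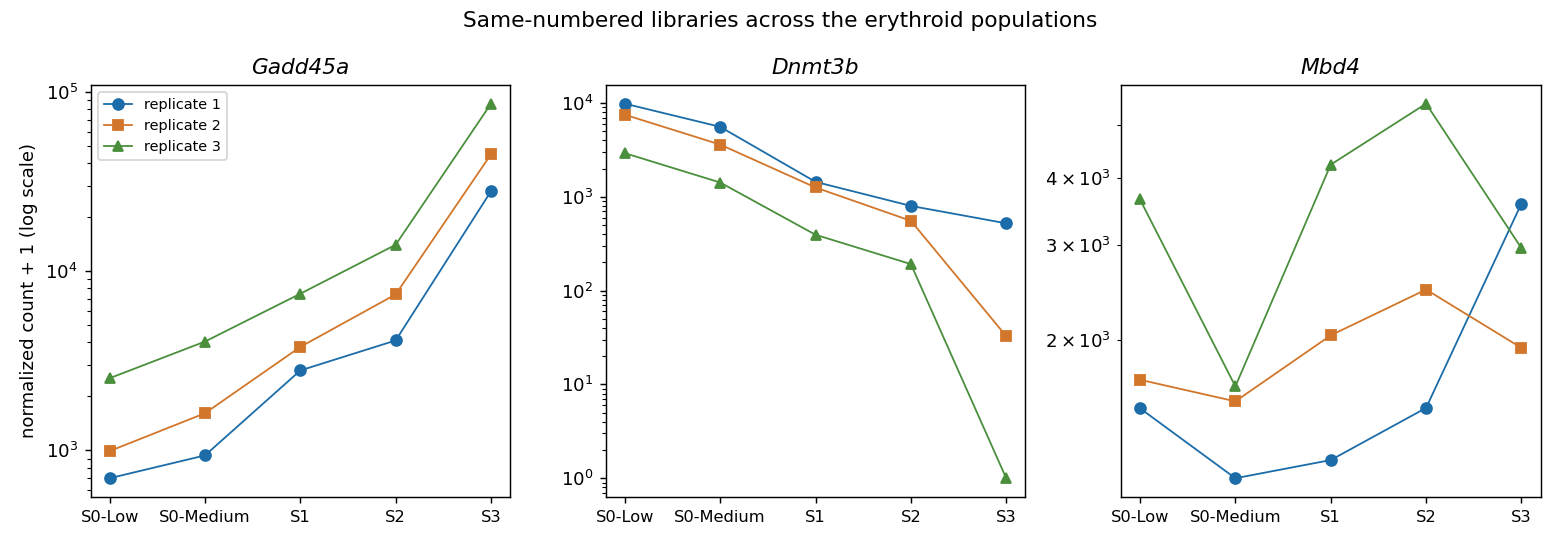
Normalized counts plus 1 (log scale) of Gadd45a, Dnmt3b and Mbd4 across the 5 erythroid populations, with same-numbered libraries joined by lines. The lines of Gadd45a run in parallel, from 698, 989 and 2525 in S0-Low to 27942, 44916 and 86018 in S3. Those of Dnmt3b keep their order, and those of Mbd4 cross at S3.

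Between neighbouring populations, in edgeR no member was called from S0-Low to S0-Medium, S0-Medium to S1 or S1 to S2, where 0% of all genes were called in either direction. At an unadjusted p under 0.05 the members numbered 0, 0 and 1 in these steps, where 3.26%, 6.86% and 4.03% of all genes were. DESeq2 called 0, 0 and 1, against 0.284%, 2.42% and 0.894%. That 1 was Tet1 from S1 to S2, at -3.88 ± 0.98 (edgeR, adjusted p = 0.576) and at an adjusted p of 0.000117 in DESeq2. With the replicate number as a block, the rise of Gadd45a from S0-Medium to S1 was called at 1.23 ± 0.19 (adjusted p = 0.0196), where 0.344% of all genes were called. Without the block it was 1.09 ± 0.63 (adjusted p = 0.931).

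In S3 against S2, Gadd45a rose by 2.64 ± 0.67 on the log2 scale (adjusted p = 0.0219), where 3.26% of all genes were higher. Dnmt3a fell by 3.94 ± 0.86 (adjusted p = 0.0111) and Tet2 fell by 1.304 ± 0.33 (adjusted p = 0.0223), where 6.09% were lower. With only these 6 libraries in the fit, 0 of the 3 were called in edgeR (adjusted p = 0.0874, 0.183 and 0.152), where 0.823% of all genes were called against 9.35% with 15 libraries, while DESeq2 over 15 libraries called 3, against 20.1% of all genes. Without S2 replicate 1, S2 replicate 2 or S3 replicate 3, Gadd45a had adjusted p values of 0.0985, 0.0914 and 0.0858 and Tet2 of 0.0751, 0.0626 and 0.073. With library totals edgeR also called Tet3 lower in S3 against S2 (-1.05, adjusted p = 0.0376), where 15.4% of all genes were called. Tet3 was likewise called with library totals in S3 against S1 (-1.24, adjusted p = 0.0115), where 27.1% were.

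In S1 against S0-Low no member was called in edgeR over 15 libraries, against 0.979% of genes higher and 1.95% lower. Dnmt3a, Dnmt3b, Tet1, Tet2 and Gadd45a, 5 in all, were at an unadjusted p under 0.05, as were 16% of all genes. DESeq2 called 2, Tet1 and Tet2, against 9.69% of all genes. The fit with the replicate block called 2, Gadd45a (1.83 ± 0.19, adjusted p = 0.000106) and Dnmt3b (-2.75 ± 0.75, adjusted p = 0.0454), against 6.03%. With only these 6 libraries edgeR called 3, Dnmt3a (-1.89, adjusted p = 0.00633), Dnmt3b (-2.73, adjusted p = 0.022) and Tet1 (-2.73, adjusted p = 0.00342), against 8.25%. Without a filter it called 3, Dnmt3a, Dnmt3b and Gadd45a (adjusted p = 0.00927, 0.00053 and 0.00204), against 3.94%. In S3 against S1, Gadd45a was higher by 3.51 ± 0.69 (adjusted p = 0.00287), against 7.21% of genes. Dnmt3a (-4.55 ± 0.89, adjusted p = 0.00262), Tet1 (-3.72 ± 0.98, adjusted p = 0.0164) and Tet2 (-1.61 ± 0.33, adjusted p = 0.00376) were lower, against 12.1%. Tet1 missed the threshold without S3 replicate 3 (adjusted p = 0.0518), and Dnmt3a with only these 6 libraries in the fit (adjusted p = 0.0508). Dnmt3b was -2.50 ± 1.16 (adjusted p = 0.137) in S3 against S1 over 15 libraries. With the replicate block it was called at -3.37 ± 0.83 (adjusted p = 0.00734), where 29.4% of all genes were called. It was also called without a filter (-2.53, adjusted p = 0.00062), where 13.1% of all genes were, and without S3 replicate 1, where 15.6% were.

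None of the 10 members was called between Lin+ and S0-Low in edgeR, which does not show that their levels were alike. In that comparison 0.496% of 17755 genes were higher in Lin+ and 0.22% lower, and at an unadjusted p under 0.05 the members numbered 0 in edgeR and 1 (Tet2) in DESeq2, where 9.85% and 11.6% of all genes were. Dnmt3a had 11313, 6803 and 9525 normalized counts in Lin+ and Tet2 had 5122, 6799 and 8144, their highest mean levels in any population, though both overlapped S0-Low. Dnmt3b had 3784, 3273 and 2512, and its log2 difference from S0-Low was -1.08 ± 1.03 (adjusted p = 0.91). Tdg had 1675, 1790 and 1487, each below every S0-Low library, at -0.55 ± 0.34 (adjusted p = 0.719).

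Against S3, Lin+ was higher in 5 members, Dnmt3a, Dnmt3b, Tet1, Tet2 and Tet3, where 28.2% of all genes were higher, and lower in 2, Gadd45a and Uhrf1, where 14.1% were lower. The log2 differences were 6.95 ± 0.91 for Dnmt3a (adjusted p = 1.61e-05), 3.20 ± 0.33 for Tet2 (adjusted p = 1.59e-06) and -5.99 ± 0.77 for Gadd45a (adjusted p = 1.35e-05). Tet3, at 0.94 ± 0.35 (adjusted p = 0.0381), was not called without S3 replicate 1 (adjusted p = 0.145) or 2 (0.0902), without Lin+ replicate 1 (0.0631) or 3 (0.113), or without the S0-Medium, S1 and S2 libraries in the fit (0.0566). Dnmt3b, at 4.13 ± 1.16, missed the threshold with only these 6 libraries in the fit (adjusted p = 0.0705). Uhrf1, at -1.28 ± 0.31 (adjusted p = 0.00309), was not called with library totals (-0.48). This comparison and S3 against S0-Low share the S3 libraries.

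Marker lists of other cell types, and of the stem and progenitor cells that the study places in S0-Low, also differed between populations. The summed level of 10 myeloid markers was 14400 to 27220 in S0-Low, 20.3 to 89.5 in S1 and 0 to 60.6 in S3, and in Lin+ it was 99390 to 182900. Of those 10 genes, 5 were at 0 in all S3 libraries. That of 8 stem and progenitor markers was 56290 to 81770 in S0-Low, 13280 to 17680 in S1 and 907 to 952 in S3, with Hlf at 0 in all 3 S3 libraries. The sums of 8 macrophage and 7 lymphoid markers were 1065 to 1707 and 370 to 781 in S0-Low, and 1.84 to 140 and 0 to 38.9 in S3. Those of 6 megakaryocyte, 5 mast and basophil and 6 hepatocyte markers were 2307 to 6849, 688 to 1036 and 188 to 289 in S0-Low. In S3 they were 586 to 2796, 0 and 0 to 12.1. The megakaryocyte sums overlapped between S0-Low and S3 and were 527 to 740 in S2. Those of the 5 sort cocktail genes were 6123 to 8145 in S0-Low, 184 to 388 in S2 and 586 to 2487 in S3, higher in S3 than in S2 without overlap. Of these 5 genes, 3 were at 0 in all S2 libraries and 4 in all S3 libraries, so the S3 sums rest on the remaining gene. The part of such cells in the S0-Low levels of Dnmt3a, Dnmt3b, Tet1 and Tet2 was not tested. Nor was it tested from S1 to S3, where the myeloid sums overlapped and the stem and progenitor sums did not.

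The proteins that work with these enzymes were followed through gene lists. Of the partners of maintenance, 8 of 9 listed genes were tested, 4 were higher and 3 lower in S3 than in S0-Low, with a median log2 fold change of 1.07 against -0.54 over all genes. For this list and those that follow, 13.4% of all genes were higher and 22.4% lower with TMM, and 6.98% and 37.6% with library totals. Usp7, a deubiquitinase that stabilises UHRF1 and DNMT1, rose by 2.42 ± 0.31 (adjusted p = 4.3e-05), and Pcna, the sliding clamp at replication forks, rose by 1.81 ± 0.37. Cdca7l fell by 2.99 ± 0.52 and Cdca7, which guides the remodeller HELLS to hemimethylated DNA, fell by 2.18 ± 0.47. Hells itself was at -1.10 ± 0.39 (adjusted p = 0.0398). With library totals 2 were higher and 3 lower, with a median of 0.21.

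Of the partners of de novo methylation, 7 of 8 were tested, 2 were higher and 2 lower, and the median was 0.63, which became -0.24 with library totals. Of the Nsd relatives, which write the histone mark read by DNMT3A, Nsd2 rose by 1.89 ± 0.39 and Nsd3 by 1.18 ± 0.29, whereas Nsd1 fell by 1.04 ± 0.26. Trim28 fell by 1.14 ± 0.34. Dnmt3l, the catalytically inactive cofactor of the germ line, had 27, 0 and 0 raw counts in S0-Low and 0 in S3. With library totals 1 was higher and 3 lower, and Nsd3 was not called (adjusted p = 0.359).

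Of 9 listed genes of methylated CpG readers and their relatives, 2 were higher and 3 lower, with a median of 0.31. It became -0.51 with library totals, where 2 were higher and 4 lower. The list includes relatives, Mbd6 among them, whose proteins are not established readers. Mbd6 rose by 1.88 ± 0.40 and Mbd2, a subunit of the NuRD complex known from globin gene silencing, rose by 1.66 ± 0.26. Zbtb4 fell by 5.18 ± 1.59 and Zbtb38 fell by 4.69 ± 0.88.

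Among partners of oxidation, 8 of 9 were tested, 1 was higher and 3 lower, and the median was -2.002 (-1.65 with 1 gene that had 0 counts in S3 set to its bound). Ogt, which adds a sugar to nuclear proteins and binds the TETs, rose by 1.33 ± 0.29. Cxxc5, a CpG-binding protein that pairs with TET2, fell by 7.61 ± 1.24, and Idh2, which makes the cosubstrate of the TETs, fell by 4.08 ± 0.66. With library totals 0 were higher and 6 lower, the median was -2.80, and Ogt was not called (adjusted p = 0.173).

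For repair of oxidised or deaminated bases, 14 of 15 were tested, 4 were higher and 4 lower, and the median was -0.999 (-0.96 with 2 genes at 0 in S3 set to their bounds). Neil3 rose by 3.33 ± 0.57 and Gadd45g, the relative of Gadd45a, rose by 1.94 ± 0.60. Nthl1 had a mean of 105 normalized counts in S0-Low and 0 in all 3 S3 libraries, at least 18.5-fold lower against a floor of 3 counts per library. Apex1, the nuclease that opens DNA after a base is removed, fell by 3.13 ± 0.51. Gadd45b, the other relative, was at -0.84 ± 1.72 and was not called. With library totals 1 gene was higher and 6 lower, the median was -1.78, and Gadd45g was not called (1.08, adjusted p = 0.151).

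In the methyl donor cycle, 10 of 10 were tested, 3 were higher and 3 lower, and the median was -0.63. With library totals 2 were higher and 5 lower, with a median of -1.44. Mthfd2, a folate enzyme of mitochondria, rose by 3.10 ± 0.46, while Shmt1 fell by 4.44 ± 1.28 and Ahcy, which clears the by-product of methylation, fell by 1.98 ± 0.64. The S phase list had 8 of 16 tested genes higher and 0 lower (6 and 2 with library totals), from 1.24 ± 0.41 for Pola1 and 1.295 ± 0.48 for Cdc6 to 3.02 ± 0.47 for Ccne2 and 3.39 ± 0.43 for Rrm2. The G2/M list had 12 of 12 higher, the least for Bub1 (adjusted p = 0.00317) and Plk1 (1.78 ± 0.32), going up to 2.87 ± 0.44 for Cenpf and 3.66 ± 0.48 for Mki67. With library totals, 11 of the 12 were higher, and Bub1, Pola1 and Cdc6 were not called (adjusted p = 0.117, 0.33 and 0.473). With the replicate block 42.4% of all genes were called in S3 against S0-Low. Higher and lower were then 5 and 3 for maintenance, 4 and 2 for de novo methylation, and 4 and 4 for readers and relatives. They were 1 and 4 for oxidation, 4 and 5 for repair, 3 and 4 for the methyl donor cycle, 10 and 0 for S phase and 12 and 0 for G2/M.

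**Figure D4:**
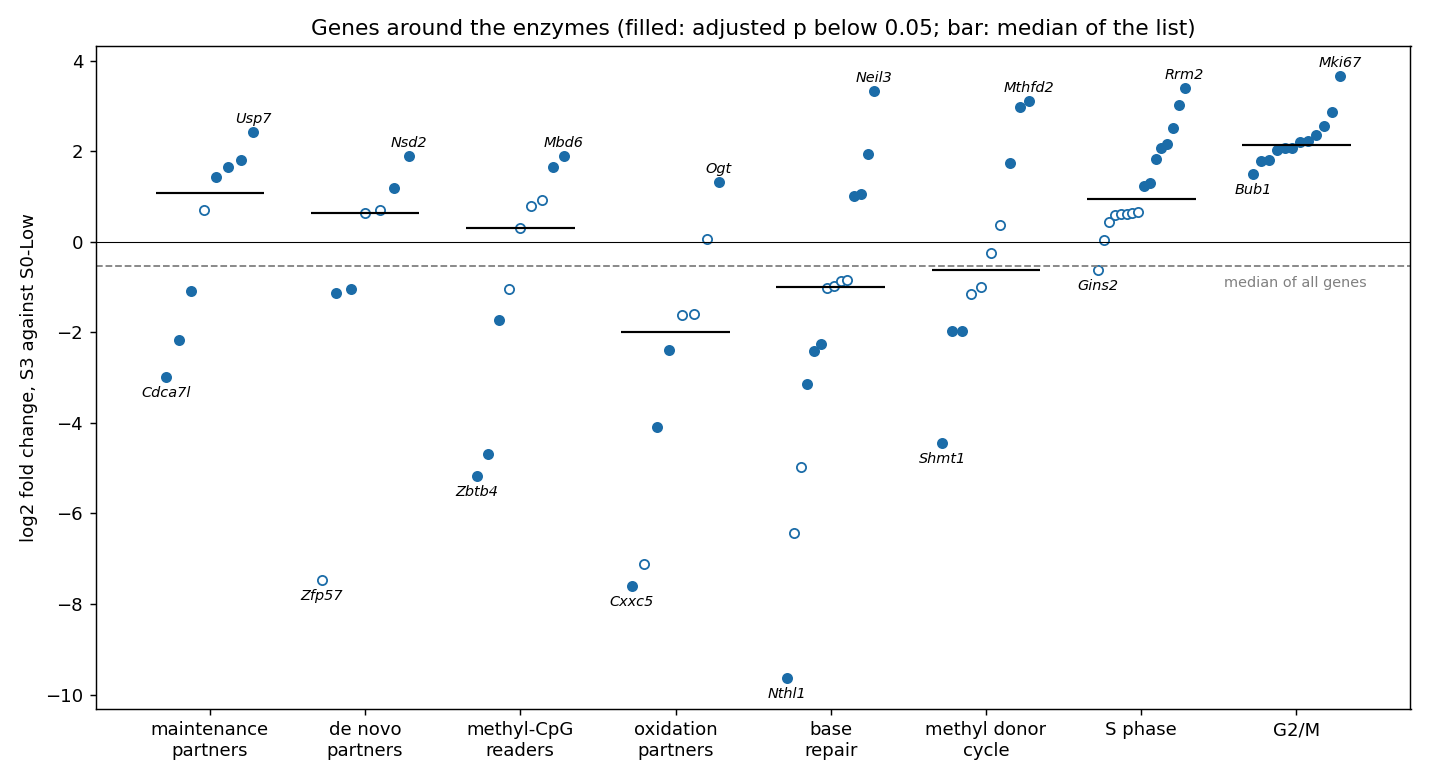
Log2 fold change of S3 against S0-Low for each tested gene of 8 lists, filled where the adjusted p was under 0.05, with a bar at each list's median and a dashed line at the median of all genes (-0.54). The G2/M genes lie above 0, whereas the other lists spread to both sides, down to Nthl1, whose fitted value of -9.64 rests on 0 counts in S3.

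The scaling set where zero lay. Over all genes, S3 differed from S0-Low by a median log2 fold change of -0.54 under TMM, -0.68 under RLE factors and -1.36 under library totals. Relative to that median Dnmt1 stood at 0.93, 0.99 and 0.91, Uhrf1 at 1.49, 1.54 and 1.47, and Tet2 at -2.04, -2.08 and -2.06. A change of scaling shifts all genes nearly alike, so this follows by construction. With library totals 1 member was higher, where 6.98% of all genes were, and 6 were lower, where 37.6% were. Of all calls 15.7% were then higher, against 37.4% with TMM.

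**Figure D5:**
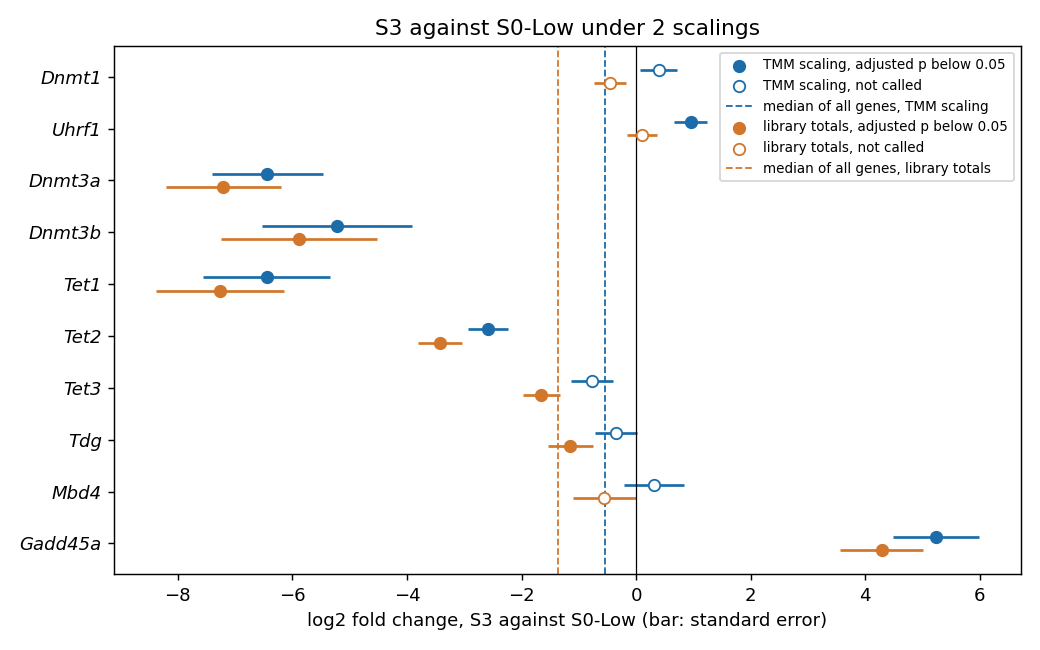
Log2 fold change of S3 against S0-Low for the 10 genes, with its standard error, under TMM (blue) and library totals (orange). Filled circles passed an adjusted p of 0.05, and dashed lines give the medians of all genes (-0.54 and -1.36). Dnmt1 and Mbd4 change sign, while Dnmt3a, Dnmt3b, Tet1, Tet2 and Gadd45a keep theirs.

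Other genes followed the members closely. Over the 15 erythroid libraries, which share 5 populations and 3 replicate numbers, log2(CPM + 0.5) of Dnmt3a was most like that of Rnf41 and Mapkapk2 (Pearson r = 0.992 and 0.987). Tet1 was most like Plod2 and Fmnl1 (0.982 and 0.981), Tet2 like 2610018G03Rik and Sfmbt2 (0.977 and 0.972), and Dnmt3b like Rnf219 and Arhgap6 (0.973 and 0.967). These coefficients describe libraries that differ mostly by population.

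Gadd45a was most like Tmcc2 and Ppp1r15a, a stress-response phosphatase subunit (0.988 and 0.988). Uhrf1 was most like Ppap2a and Slbp, the histone mRNA binding protein of S phase (0.963 and 0.961), and Dnmt1 like Mybl2, a cell cycle factor, and Btbd10 (0.903 and 0.902). For Tet3 they were Alg9 and Prrg1 (0.911 and 0.897), for Mbd4 Casp2 and Palb2 (0.922 and 0.915), and for Tdg Lsm12 and Uchl5 (0.965 and 0.921). The search covered 10727 genes with a mean of at least 100 normalized counts.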

How the data were processed

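Libraries were made by the authors with a kit that keeps strand and with PCR, carried no molecular identifiers, and were quantified with Kallisto 0.43.0 (submitters' processing notes, build GRCm38). The deposited counts are whole numbers per gene, not normalized, with replicates kept apart. The transcript set and strand setting are not given in the sources used here. Members and lists were chosen with earlier results of these data known.

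Counts were compared in R 4.3.3 with edgeR 4.0.16 (TMM, filterByExpr, two-sided quasi-likelihood test, Benjamini-Hochberg over all tested genes, adjusted p under 0.05). One fit held the 15 erythroid libraries (16555 genes) and another all 18 (17755 genes, for Lin+), with population as the only factor, and standard errors derive from the F statistic. Alternatives were DESeq2 1.42.0, other scalings and filters, the replicate number as a block, other sets of libraries, and each library left out in turn. The test was checked on simulated data. Within-library ratios used log2 of counts plus 0.5. Replicates were compared by chi-square (at least 89.4 per degree of freedom), a check that can only find a library deposited more than once. Symbols of 4 listed genes were matched by an older name, and 2 listed globin genes were not analysed here. Positions and promoter sequences are from RefSeq (GRCm38.p6), and 10 of 10 members matched. Shared 31-base words were counted among GENCODE vM1 coding transcripts, and for Gm14490 in its annotated exons. Text genes were all members, and of each list the 2 highest and 2 lowest log2 fold changes among its called genes, plus Hells, Dnmt3l, Gadd45b, Hlf, Itgam, Gm14490, Gm5806 and E230016M11Rik, chosen after their values were seen. One gene that this rule names is not reported here.

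Whether replicate numbers pair the libraries was checked by correlating the deviations of same-numbered libraries from their group means. Each of 3 pairs exceeded 0.1 in 7 of 9 comparisons. In S3 against S0-Low they were 0.084, 0.134 and 0.107, and in Lin+ against S3 0.091, 0.121 and 0.16. The numbers come from the labels, which do not say what they stand for. Counts and floors carry counting error only.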

Additional observations from a re-analysis of the deposited data

How the results depend on the processing

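With library totals Dnmt1 and Mbd4 reversed in S3 against S0-Low, to -0.45 and -0.55, which follows from the lower median of all genes. The number of members called moved by over 1.5 times in these cases. Requiring at least 10 counts in every compared library, which removes Dnmt3a, Dnmt3b and Tet1 from the test, gave 3 in place of 6 in S3 against S0-Low (38.5% of all genes in place of 35.8%), 2 for 4 in S3 against S1 (26.9% for 19.3%), 2 for 6 over the 5 populations (27.1% for 24.6%) and 4 for 7 in Lin+ against S3 (42% for 42.2%). With only the libraries compared, S3 against S2 gave 0 in place of 3 (0.823% of all genes for 9.35%) and S1 against S0-Low gave 3 in place of 0 (8.25% for 2.92%). Without a filter S1 against S0-Low gave 3 (3.94%) and S2 against S1 gave 1 (0.267% for 0%). DESeq2 gave 2 (9.69%) and 1 (0.894%) there. The replicate block gave 2 in S1 against S0-Low (6.03%) and 1 in S1 against S0-Medium (0.344% for 0%). Apart from these and Dnmt3b in S3 against S1, the block changed no member's call. Where neither the filter nor the scaling accounts for a shift by construction, the cause was not tested.

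Leaving out 1 library at a time, members called ranged from 1 to 4 in S3 against S2 (3.94% to 13.4% of all genes), 3 to 5 in S3 against S1 (9.78% to 19.3%), 5 to 6 in S3 against S0-Low (24.6% to 32.7%), 5 to 6 over the 5 populations (18.7% to 24.2%, Uhrf1 lost in 11 of 15 fits) and 6 to 7 in Lin+ against S3 (31.3% to 37.7%). Only 1 member was called in S3 against S2 without S2 replicate 1 (3.95%), S2 replicate 2 (3.94%) or S3 replicate 3 (4.99%). The S3 minus S0-Low difference in the log2 ratio of Dnmt3a to Dnmt3b, -0.36, ranged from -1.69 to 1.12 and reversed without S3 replicate 1. The other 5 ratios kept their sign under each alternative, and with the replicate block by sign-flip the difference for Uhrf1 to Dnmt1 was 0.51 (smallest p 0.25).

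Counts over all genes moved too. The 5932 calls in S3 against S0-Low ranged from 3034 (at least 10 counts, 7873 genes tested) to 7384, 3190 in S3 against S1 from 1722 (without S1 replicate 2) to 5032, 1548 in S3 against S2 from 98 (only these libraries, 11911 tested) to 3332, 484 in S1 against S0-Low from 119 (without S1 replicate 3) to 1605, 4077 overall from 2103 (at least 10 counts, 7763 tested) to 6253 (no filter, 28888 tested), 7501 in Lin+ against S3 from 3429 (at least 10 counts, 8173 tested) to 8538 and 127 in Lin+ against S0-Low from 42 (without Lin+ replicate 3) to 602. The 3 early steps, at 0, reached 53, 401 and 148. With the replicate block, 465 genes were higher and 534 lower in S1 against S0-Low, 1208 and 1866 in S3 against S2, and 1841 and 3018 in S3 against S1. With library totals the share of calls that were higher went from 34.9% to 11.3% in S3 against S2, 37.4% to 13.1% in S3 against S1, 33.5% to 23.0% in S1 against S0-Low and 66.7% to 84.2% in Lin+ against S3. Counts of 0 to 215 in S3 limit the fold changes of Dnmt3a, Dnmt3b and Tet1.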

Other observations

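Dnmt3b-ps1, the related copy beside Dnmt3b that the table lists as Gm14490, had its highest mean in S1 and not, as Dnmt3b had, in S0-Low. Its mean level was 98.7 ± 60.3 normalized counts (SD, n = 3) in S0-Low and 211 ± 40.56 in S0-Medium. S1 held 320 ± 147, S2 held 206 ± 174, and S3 held 91.5 ± 141. No difference among the 5 populations passed edgeR's test (adjusted p = 0.815). In Lin+ cells it held 0, 14 and 8 counts, a mean of 5.20 ± 5.15, where Dnmt3b had 3190 ± 640. The log2 difference of Lin+ from S0-Low was -4.18 ± 1.63 (adjusted p = 0.343). This row was chosen after its values were seen, and how reads were divided between it and Dnmt3b is not given in the sources used here.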
